A study of Mus musculus with 10 samples.

Results

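The nuclear genes of the mitochondrial respiratory chain and ATP synthase were followed through 6 groups of mouse kidney RNA. Members were the probe sets whose 1 annotated symbol starts with Nduf, Uqcr, Cox4 to Cox8 or Atp5, or is Sdha, Sdhb, Sdhc, Sdhd, Cyc1 or Cycs. The rule found 160 of 22690 probe sets and 86 of 12394 genes. By complex these were 34 genes of complex I (68 probe sets), 5 complex I assembly factors named Ndufaf (6), 4 of complex II (7), 9 of complex III (16), 16 of complex IV (32), 17 of complex V (28) and cytochrome c (3 probe sets). Each gene is represented by the probe set with the highest mean signal over all arrays. Of these, 85 of 86 passed the filter on dim probe sets, a mean above the 40th percentile, and Cox8b did not. Among all probe sets, 150 of 160 passed.

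The kidneys came from male C57/BLACK6 mice of 7 weeks and about 20 g, and RNA was hybridised to Affymetrix arrays. All mice received 200 µM 4-thiouridine (s4U, a uridine analogue that newly made RNA takes up) with 34 µCi of 3H-cytidine in 1 ml of saline by intraperitoneal injection, and again 1 h later. In normal mice the injections were given at 0 and 1 h, and the kidneys were taken at 2 h. In the other mice the left renal vessels had been clamped for 45 min under ether. They received the injections at 1 and 2 h of reperfusion, and their unclamped (contralateral) kidney was taken at 3 h. Each kidney type has 3 preparations: total RNA (2 arrays), amplified total RNA (2 arrays) and newly transcribed RNA, enriched for s4U (1 array). The time from injection to removal was the same for both kidney types. The labels describe no sham surgery, so effects of anaesthesia, surgery and the injured other kidney cannot be told apart. Sample titles number these pairs of arrays as biological replicates.

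Complex I takes electrons from NADH, and complex II takes them from succinate. Complex III passes them to cytochrome c and complex IV from there to oxygen, and complex V (ATP synthase) uses the resulting proton gradient to make ATP. Proximal tubule and thick limb cells, which make up most of the kidney cortex and outer medulla, carry many mitochondria to power sodium transport. Complex II is encoded in the nucleus alone, and the other complexes hold mitochondrially encoded subunits as well. Nuclear respiratory factor 1 (NRF1), YY1 and ETS-type factors are known regulators of these nuclear genes, and PGC-1alpha (Ppargc1a) is a coactivator.

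Promoters are shown because the members are often described as co-regulated, while their values in newly transcribed RNA differed within a complex. RefSeq promoters (build GRCm38.p6) were matched for 71 of 86 members. The NRF1 motif (GCGCA, then any base, then GCGC), searched on both strands of the 300 bases around the start, was present for 16 of the 71 members (22.5%), against 5.19% of all 27025 genes. The YY1 motif AANATGGC was also present for 16 members (22.5%, against 6.96%) and the ETS motif CCGGAAGT for 5 (7.04%, against 4.31%). The motifs were each searched on both strands, separately, and their matches may overlap. From the members with the NRF1 motif, 4 were chosen. Their 250 bases before the start are printed 5′ to 3′ in lower case, with NRF1 motif matches in capitals. The 4 members are the catalytic subunit Sdha (3 matches) and the membrane anchor Sdhd (1) of complex II, the ATP synthase c-subunit gene Atp5g2 (1) and the complex IV subunit Cox6a1 (2). All lie on the minus strand. Sdhb, Atp5b and Atp5e had 0 matches in their 250 bases and are not printed.
Sdha, chr13:74350241-74350490: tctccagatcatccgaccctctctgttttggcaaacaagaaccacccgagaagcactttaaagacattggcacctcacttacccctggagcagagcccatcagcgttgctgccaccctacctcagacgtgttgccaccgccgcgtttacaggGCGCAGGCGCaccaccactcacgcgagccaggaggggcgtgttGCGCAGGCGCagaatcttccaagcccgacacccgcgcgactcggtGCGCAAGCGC
Sdhd, chr9:50603850-50604099: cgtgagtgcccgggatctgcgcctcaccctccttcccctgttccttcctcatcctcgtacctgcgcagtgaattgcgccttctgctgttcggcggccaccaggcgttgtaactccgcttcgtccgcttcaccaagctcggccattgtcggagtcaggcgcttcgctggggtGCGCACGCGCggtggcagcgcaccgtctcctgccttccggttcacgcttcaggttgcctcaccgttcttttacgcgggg
Atp5g2, chr15:102671048-102671297: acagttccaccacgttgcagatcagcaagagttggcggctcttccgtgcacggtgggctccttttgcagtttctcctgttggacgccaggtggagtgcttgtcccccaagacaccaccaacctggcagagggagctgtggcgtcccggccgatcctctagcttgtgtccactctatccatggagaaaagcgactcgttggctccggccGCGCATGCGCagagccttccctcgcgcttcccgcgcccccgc
Cox6a1, chr5:115348959-115349208: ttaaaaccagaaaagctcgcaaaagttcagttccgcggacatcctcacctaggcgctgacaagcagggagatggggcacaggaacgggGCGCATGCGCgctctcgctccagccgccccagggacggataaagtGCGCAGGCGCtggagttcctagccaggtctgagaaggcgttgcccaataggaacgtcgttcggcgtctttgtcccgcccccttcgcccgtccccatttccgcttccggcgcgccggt
A match describes the letters in this window and no binding. The 16 members with the motif had a median log2 difference between newly transcribed and amplified RNA of -0.87, and the 54 tested members without it -0.89. In total RNA the contralateral minus normal medians were -0.09 with and -0.04 without the motif, and in amplified RNA -0.03 and -0.01. Between the 2 newly transcribed arrays they were 0.49 with (range -1.78 to 2.04) and 0.84 without (-1.38 to 2.85). The last is 1 array against 1, and a difference by motif was not tested.

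The arrays themselves differed by preparation. Control probe sets for the 3′ and 5′ ends of Gapdh gave signal ratios between 0.938 and 1.12 for total and between 4.21 and 6.23 for amplified RNA. For newly transcribed RNA the ratio was 12.7 (normal) and 68.9 (contralateral). The same ratio for Actb was 1.30 to 1.85, 7.34 to 8.29, 12.7 and 24.8. Proximal tubule markers were bright on all arrays checked, with a mean log2 signal of 10.91 to 10.94 in normal and 10.79 to 10.85 in contralateral amplified RNA. All 6 skeletal muscle markers lay below the filter. The 4 white adipose markers on the array had a mean log2 signal of 6.33 to 6.65 in normal and 6.67 to 6.99 in contralateral total RNA. In newly transcribed RNA their mean was 5.77 on the normal and 8.07 on the contralateral array. In whole-kidney RNA, fewer cells of a type and less RNA per cell cannot be told apart.

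The members were among the brightest probe sets, with 71 of 86 above the 90th percentile of mean signal and a median percentile of 97.4. Their median normalized log2 signal was 10.78 and 10.81 on the normal and 10.74 and 10.71 on the contralateral total RNA arrays. On the amplified arrays it was 10.55 and 10.55 for normal and 10.44 and 10.54 for contralateral kidneys. It was 9.24 on the normal and 9.88 on the contralateral newly transcribed array, below every other array. Replicate arrays differed by a median of 0.08 to 0.15 log2 units for the members, and 0.13 to 0.19 over all tested probe sets.

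**Figure D1:**
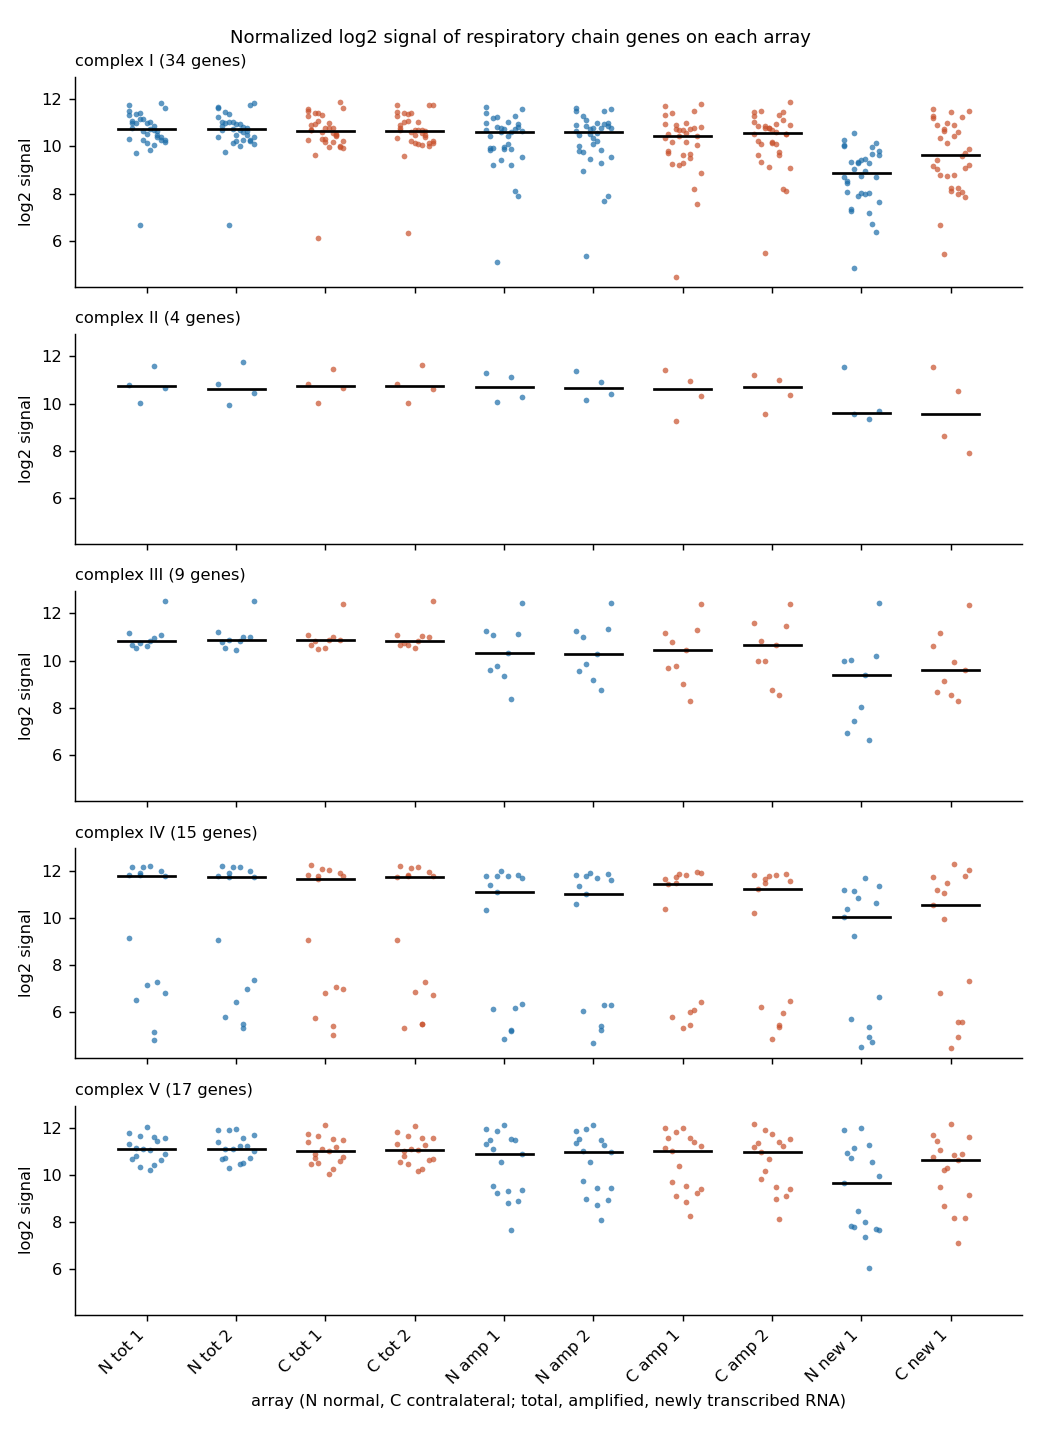
Normalized log2 signal (y axis) of each tested member on each of the 10 arrays (x axis; N normal, blue; C contralateral, orange), with 1 panel per complex; points are genes and bars are medians. The complex I median was 10.73 and 10.72 on the normal total RNA arrays and 8.86 on the normal newly transcribed array.

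Total RNA, which is dominated by transcripts made before the labelling, showed no called difference for these genes between contralateral and normal kidneys. Of 85 members, 0 were higher and 0 lower by limma at an adjusted p under 0.05, against 1.58% of all tested probe sets higher and 0.331% lower. At an unadjusted p under 0.05, 5 members differed, against 14.8% of all tested probe sets. Differences ran from -0.59 for Cox6a2 to 0.28 for Cox4i2 with a median of -0.05, which turned to 0.05 when arrays were scaled to 1 median. The 95% confidence interval of the difference lay within 2-fold in either direction for 83 members and within 1.5-fold for 75. For all tested probe sets these shares were 92.8% and 56.6%.

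The groups did not overlap for 35 members, 6 higher and 29 lower in the contralateral kidney, where 22.4% and 24.2% of all probe sets did the same. These 35 included the member with the smallest p, Uqcrc2, a core protein of complex III. Its log2 signals were 10.52 and 10.52 in normal and 10.84 and 10.73 in contralateral total RNA. Both contralateral arrays were above both normal arrays, by 0.26 ± 0.086 (limma standard error; adjusted p = 0.178), and the call was not reached.

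In complex I the smallest p belonged to Ndufb3, an accessory subunit of the membrane arm, at -0.34 ± 0.132 (adjusted p = 0.261). Its normal arrays read 10.41 and 10.28 and its contralateral arrays 9.99 and 10.03, without overlap. In complex II it was the iron-sulphur subunit Sdhb, at -0.12 (adjusted p = 0.629), and among the assembly factors Ndufaf3, at -0.28 (adjusted p = 0.408). In complex V it was Atp5mpl, a small accessory subunit, at -0.25 (adjusted p = 0.271). Cytochrome c (Cycs) differed by 0.06 (adjusted p = 0.917). In complex IV it was Cox6a2, an isoform of heart and skeletal muscle, whose dim probe set read 6.51 and 5.78 in normal and 5.75 and 5.35 in contralateral kidneys (-0.59 ± 0.255, adjusted p = 0.31). None of these passed.

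Amplified total RNA from the same kidney types gave 7 called members of 85. Cox8a, a small structural subunit of complex IV, and Atp5d, the delta subunit of the ATP synthase rotor, rose. Sdhc, a membrane anchor of complex II, and 4 genes with Nduf symbols (Ndufb10, Ndufb3, Ndufa4 and Ndufc2) fell. The 2 higher and 5 lower calls stand against 4.1% higher and 6.22% lower over all tested probe sets, shares near those of the members. With arrays scaled to 1 median, 0 were higher and 2 lower. The median difference was -0.02, and 24 members had an unadjusted p under 0.05, against 25% of all tested probe sets.

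Sdhc read 10.05 and 10.17 in normal and 9.27 and 9.55 in contralateral amplified RNA. Its mean was 10.11 ± 0.083 (SD, n = 2) against 9.41 ± 0.20 (SD, n = 2), without overlap, and it fell by 0.71 ± 0.114 (limma, adjusted p = 0.00275). In total RNA its arrays read 10.03 and 9.93 against 10.02 and 10.02, which overlapped. A dimmer Sdhc probe set read 8.58 and 8.72 against 8.90 and 7.66, with overlap, and did not pass (-0.37, adjusted p = 0.483).

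Cox8a read 11.07 and 11.03 in normal and 11.49 and 11.65 in contralateral amplified RNA, and rose by 0.52 ± 0.084 (limma, adjusted p = 0.00267). A separate Cox8a probe set rose by 1.07 (adjusted p = 4.82e-05), with normal arrays at 9.97 and 9.85 and the lower contralateral array at 10.97. In total RNA the order was the opposite, at 11.91 and 11.90 against 11.78 and 11.80, and the difference of -0.11 did not pass. The Cox8a arrays lay apart in opposite orders in the 2 preparations, but the total RNA difference was not called. In total RNA 24.2% of all tested probe sets were lower without overlap. The amplified call of the first probe set was lost with arrays scaled to 1 median.

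Atp5d read 10.88 and 10.97 against 11.24 and 11.51, and rose by 0.44 ± 0.104 (limma, adjusted p = 0.0204). Its second probe set rose by 0.60 (adjusted p = 0.00786). In total RNA Atp5d differed by -0.09 (adjusted p = 0.738).

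Among the genes with Nduf symbols, Ndufb10, of the membrane arm, read 9.54 and 9.57 against 8.86 and 9.07, and fell by 0.59 ± 0.123 (limma, adjusted p = 0.0117). Ndufb3 read 10.81 and 10.87 against 10.08 and 10.53, and fell by 0.53 ± 0.132 (adjusted p = 0.0256). Ndufa4, named for complex I, grouped there by its symbol, and now counted with complex IV, read 10.94 and 11.01 against 10.44 and 10.54, and fell by 0.49 ± 0.09 (adjusted p = 0.00612). Ndufc2, another membrane-arm accessory subunit, fell by 0.43 ± 0.084 (adjusted p = 0.00786), and its other probe set fell by 0.65 (adjusted p = 0.0161). For each of these 4 genes both contralateral arrays were below both normal arrays.

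Complex III, the assembly factors and cytochrome c had no called member in amplified RNA. Their smallest p values belonged to Uqcrh, the hinge protein (-0.38, adjusted p = 0.0688), Ndufaf4 (-0.26, adjusted p = 0.196) and Cycs (-0.39, adjusted p = 0.145). Without overlap, 23 members were higher and 25 lower, against 29.5% and 25.5% of all probe sets. The count of 7 was 3 without normal amplified replicate 1, 3 without normal amplified replicate 2 and 14 without contralateral amplified replicate 1. Sdhc kept its call in 19 of 19 alternative fits and Cox8a in 18 of 19.

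The contralateral effect itself differed between amplified and total RNA for 3 members, 1 higher and 2 lower, against 0.641% and 3.82% of all tested probe sets. Cox8a's effect was 0.63 ± 0.118 higher in amplified RNA (limma, adjusted p = 0.0109). Sdhc's was 0.74 lower (-0.74 ± 0.162, adjusted p = 0.024). Uqcrc2's was -0.50 ± 0.122 (adjusted p = 0.0413), its amplified arrays reading 11.08 and 11.02 in normal and 10.77 and 10.85 in contralateral kidneys. Ndufa4 (-0.49, adjusted p = 0.057) and Atp5d (0.54, adjusted p = 0.0705) did not pass. The count was 9 without contralateral amplified replicate 1. It was 0 without normal amplified replicate 2, normal total replicate 2 or contralateral total replicate 1, and 1 without normal amplified replicate 1, normal total replicate 1 or contralateral total replicate 2.

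Fitted over all 3 preparations, 0 of 85 members were higher and 0 lower by limma (0.383% and 0.0589% of all tested probe sets), and 4 had an unadjusted p under 0.05, against 14.6% of all tested probe sets. The model holds 1 kidney effect, and any difference of it between preparations counts as residual spread. The members' median kidney difference was -0.05 in total, -0.02 in amplified and 0.67 in newly transcribed RNA. Their 95% confidence intervals reached a median of 0.364 to either side here and 0.226 within total or amplified RNA. For all tested probe sets it was 0.376 and 0.370. The 0 calls therefore do not show equal levels. The smallest p belonged to Ndufb3 (-0.43 ± 0.113, adjusted p = 0.144). In complex III it belonged to the core protein Uqcrc1 (0.23, adjusted p = 0.368), and in complex V to the small subunit Atp5md (0.45, adjusted p = 0.334). The median was 0.13 with the newly transcribed arrays and -0.03 on the total and amplified arrays alone.

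**Figure D2:**
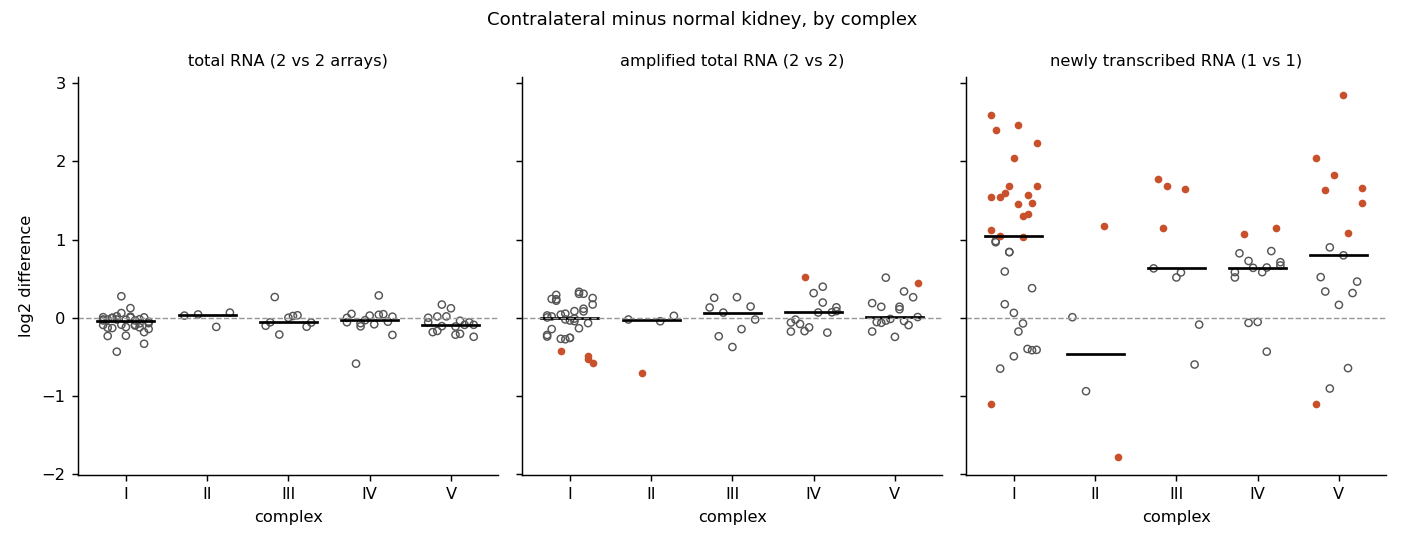
Contralateral minus normal log2 difference (y axis) of each tested member by complex (x axis), in total, amplified and newly transcribed RNA; filled points passed an adjusted p of 0.05 in the first 2 panels and were at least 2-fold apart in the third, which has no test; bars are medians. No point is filled in total RNA, 7 are in amplified RNA, and the complex I median is 1.04 in newly transcribed RNA after normalization.

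In newly transcribed RNA the members were, after normalization, mostly higher on the contralateral array than on the normal one. This is 1 array against 1, with no replicate check and no test. Of 85 members 32 were at least 2-fold higher and 4 at least 2-fold lower, against 14.4% and 18.5% of all tested probe sets, and 63 (74.1%) were higher by any amount. The median difference was 0.67, where that of all probe sets was 0.00. Among the 2263 tested probe sets above the 90th percentile of mean signal, 19.1% were at least 2-fold higher and 17.2% lower. Of the 71 members as bright, 29 were higher (40.8%) and 3 lower (4.23%). With arrays scaled to 1 median the counts were 41 higher and 3 lower.

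The direction rests on the normalization, because the 2 arrays are the brightest and the dimmest of the series, with median deposited intensities of 70.3 (normal) and 18.6 (contralateral). In the deposited values 71 of 85 members (83.5%) were lower on the contralateral array and 14 higher. Of all tested probe sets 95.8% were lower and 4.21% higher. Without normalization the members' median was -0.77 and that of all tested probe sets -1.63. The members thus stood higher relative to the other probe sets of the array, and a direction in absolute amount was not measured.

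Values that moved with this difference are the median deposited intensity, the 3′ to 5′ ratio of Gapdh, 12.7 against 68.9, and the adipose markers. All 3 tested white adipose markers were at least 2-fold higher on the contralateral array, by 1.79 to 2.65. The brown fat gene Ucp1 read 4.35 and 6.85, and the other tested brown fat marker differed by 0.22. Markers of other types also moved. At least 2-fold higher were 1 of 6 for collecting duct, 1 of 4 for leukocytes, 1 of 2 for adrenal gland and 1 of 2 for red blood cells. Of 5 endothelial markers 1 was higher and 2 lower, and of 7 proximal tubule markers 1 was lower. Their part in the result was not tested.

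Complex I had 18 members at least 2-fold higher and 1 lower, with a median of 1.04. Ndufv3, an accessory subunit of the NADH-oxidising module, read 8.70 on the normal and 11.30 on the contralateral array, a difference of 2.60. Ndufa2 read 7.98 and 10.45 (2.46), and Ndufs8, an iron-sulphur core subunit, 8.52 and 10.93 (2.41). The lower member was Ndufa9, a structural accessory subunit, at 10.29 and 9.18 (-1.10). Ndufb10, which fell in amplified RNA, read 7.64 and 9.88 here and so lay the other way. The core subunit Ndufs7 was higher by 2.05, and by 1.12 on its other probe set. For Ndufv1, another core subunit, the probe sets disagreed, at -0.40 for the brightest and 0.73 and 0.76 for the others. Of the 5 assembly factors 0 were 2-fold higher, and Ndufaf1 was lower by more than 2-fold (8.55 and 7.17).

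Complex II was divided. Sdha read 11.56 and 11.57, Sdhb 9.36 and 10.53, Sdhc 9.55 and 8.61 and Sdhd 9.69 and 7.91. Sdhb was more than 2-fold higher (1.17), Sdhd more than 2-fold lower (-1.78) and Sdha equal within 0.01. The second probe set of Sdha read 11.08 and 10.79 (-0.29). The dimmer second probe set of Sdhd went the other way, at 7.11 and 7.57 (0.46).

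**Figure D3:**
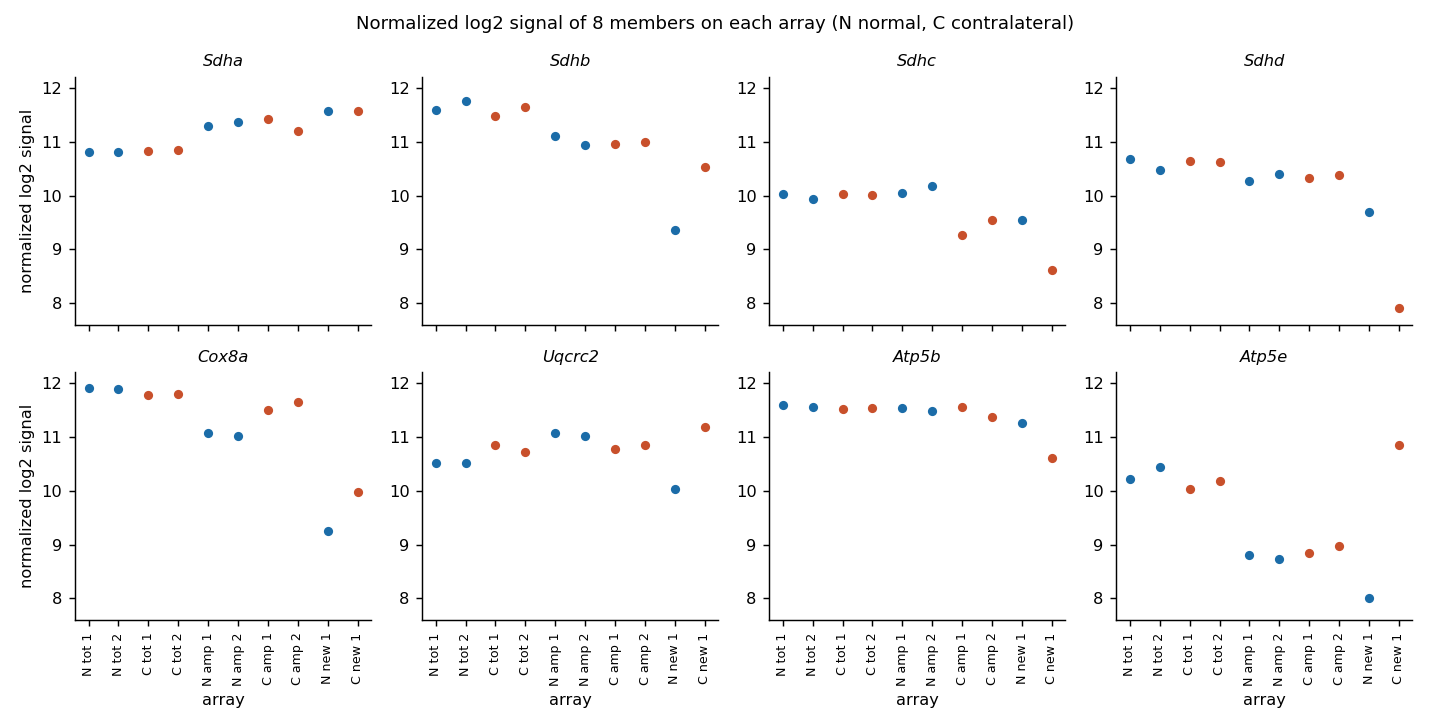
Normalized log2 signal (y axis) of the 4 complex II genes and of Cox8a, Uqcrc2, Atp5b and Atp5e on each array (x axis; N normal, blue; C contralateral, orange); each point is 1 array. On the contralateral newly transcribed array Sdha reads 11.57 and Sdhd 7.91, against 10.80 and 10.68 on the first normal total RNA array.

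In complex III, 4 of 9 members were at least 2-fold higher and 0 lower. The small subunits Uqcrq (6.92 and 8.69), Uqcr11 (7.44 and 9.12) and Uqcr10 (6.63 and 8.27) had the largest differences, of 1.78, 1.69 and 1.64. The Rieske iron-sulphur protein Uqcrfs1 was lower, by 0.60 in size (10.21 and 9.60).

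In complex IV, 2 of 15 members were at least 2-fold higher and 0 lower, with a median of 0.64. They were Cox6b1 (10.62 and 11.76), which lies on the intermembrane side, and Cox6a2 (5.72 and 6.80).

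In complex V, 7 of 17 members were at least 2-fold higher and 1 lower, with a median of 0.80. Atp5e, the epsilon subunit of the rotor, read 8.01 and 10.86, a difference of 2.85. Atp5k and Atp5j2, small membrane subunits, differed by 2.04 and 1.83. The alpha and beta subunits of the catalytic head, Atp5a1 (-1.11) and Atp5b (-0.65), were lower. Of the rotor, the gamma subunit Atp5c1 (-0.91) was lower, and the delta and epsilon subunits Atp5d (1.66) and Atp5e (2.85) were higher. The Atp5a1 probe sets disagreed, at -1.11, 0.10 and, for a dim one that read 5.04 and 8.55, 3.51. Over the 44 members with several tested probe sets, 29 had 1 sign for all of them in this comparison.

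Newly transcribed RNA was next compared with amplified total RNA, with the kidney in the model (2 arrays against 4). The preparations also differed in the 3′ to 5′ ratio of Gapdh, 12.7 and 68.9 on the newly transcribed against 4.21 to 6.23 on the amplified arrays. For Actb the ratio was 12.7 and 24.8 against 7.34 to 8.29. The part of these ratios in the result was not tested. Of 85 members 51 were lower in newly transcribed RNA and 0 higher, against 16.7% and 11.9% of all tested probe sets, and the median difference was -0.81. Among bright probe sets (above the 90th percentile) 31% were lower and 10.8% higher, with a median of -0.30. Of the 71 members as bright, 46 were lower (64.8%), with a median of -0.91. The count of lower members ran from 39 to 70 over the alternatives. Cell type markers also fell, so the drop was not particular to the members. Lower were 4 of 7 for proximal tubule, 3 of 5 for thick limb and distal tubule and 3 of 6 for collecting duct. For podocytes 2 of 3 and for endothelium 3 of 5 were lower, and 0 were higher in any of these lists. Of leukocyte markers 1 of 4 was lower, and of white adipose markers 0 of 3.

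Complex I had 22 of 34 members lower. The largest was Ndufs4, an accessory subunit of the NADH-oxidising module, which read 9.20, 8.95, 9.26 and 9.36 on the amplified arrays and 7.35 and 6.70 on the newly transcribed ones. Both newly transcribed arrays were below all 4 amplified arrays, and it fell by 2.17 ± 0.202 (limma, adjusted p = 0.000224). Ndufb2 fell by 1.97 ± 0.279 (adjusted p = 0.00095) and Ndufb5 by 1.97 ± 0.184 (adjusted p = 0.000224), both of the membrane arm. Of the assembly factors 3 of 5 fell: Ndufaf7 (-1.22), Ndufaf5 (-1.14) and Ndufaf3 (-0.81).

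In complex II, 3 of 4 members fell. They were Sdhd by 1.54 ± 0.34 (limma, adjusted p = 0.00833), Sdhb by 1.05 (adjusted p = 0.0111) and Sdhc by 0.68 (adjusted p = 0.047), which kept its call in 8 of 18 alternative fits. For Sdha the result depended on the probe set. Its representative probe set read 11.30, 11.38, 11.42 and 11.21 on the amplified arrays and 11.56 and 11.57 on the newly transcribed ones. The latter were above all 4, at a difference of 0.24 that did not pass (adjusted p = 0.14). The other probe set of Sdha fell by 0.52 and passed (adjusted p = 0.0191), and the other probe set of Sdhd did not pass (0.43, adjusted p = 0.278).

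Complex III had 7 of 9 members lower. Uqcrq read 9.59, 9.57, 9.69 and 9.98 on the amplified arrays and 6.92 and 8.69 on the newly transcribed ones, and fell by 1.90 ± 0.327 (limma, adjusted p = 0.00235). Uqcr11 fell by 1.56 (adjusted p = 0.00746) and Uqcrfs1 by 1.41 (adjusted p = 0.00048). In complex IV 6 of 15 fell, fewer than in complexes I and III by count, and the difference between complexes was not tested. Cox8a fell by 1.70 ± 0.186 (adjusted p = 0.000353), Cox7a1 by 0.97 (adjusted p = 0.0127) and Cox7a2 by 0.71 (adjusted p = 0.00832).

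In complex V 10 of 17 members fell. Atp5o, the stalk protein that confers oligomycin sensitivity, read 9.34, 9.45, 9.52 and 9.48 on the amplified and 7.36 and 8.16 on the newly transcribed arrays, without overlap, and fell by 1.69 ± 0.196 (limma, adjusted p = 0.00041). Atp5l, a small membrane subunit, fell by 1.45 (adjusted p = 0.00302), and Atp5c1 by 1.19 (adjusted p = 0.00134). Cycs, at -0.42, did not pass (adjusted p = 0.175).

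The 2 kidneys differed in the size of this gap, as a description with 1 newly transcribed array each. It uses the same 2 newly transcribed arrays as their direct comparison above and rests on the same normalization, so it is not a separate observation. In the normal kidney the newly transcribed array was below both amplified arrays for 79 of 85 members (92.9%, against 46.6% of all tested probe sets), including all 34 of complex I, with a median of -1.22. In the contralateral kidney this held for 58 members (68.2%, against 45.7%), with a median of -0.38. Among bright probe sets the shares were 60.6% and 56.1%. Without the normal newly transcribed array the fit called 41 members lower and 8 higher, and without the contralateral one 70 lower and 0 higher. The gap was also present against total RNA, where the newly transcribed array lay below both arrays for 74 members (87.1%) in normal and 64 (75.3%) in contralateral kidneys, against 45.5% and 46.3% of all tested probe sets.

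Amplified and total RNA, 4 arrays each, were compared with the kidney in the model. Whether they came from the same mice is not stated, so preparation and animal cannot be told apart. Of 85 members 12 were higher in amplified RNA and 33 lower, against 20.7% and 17.6% of all tested probe sets, and the median was -0.26. With arrays scaled to 1 median the members' median was -0.03 while that of all probe sets moved from 0.04 to 0.20. The comparison shares its amplified arrays with the preceding one. Over the fits that leave out 1 array, 7 to 17 members were higher and 23 to 45 lower.

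**Figure D4:**
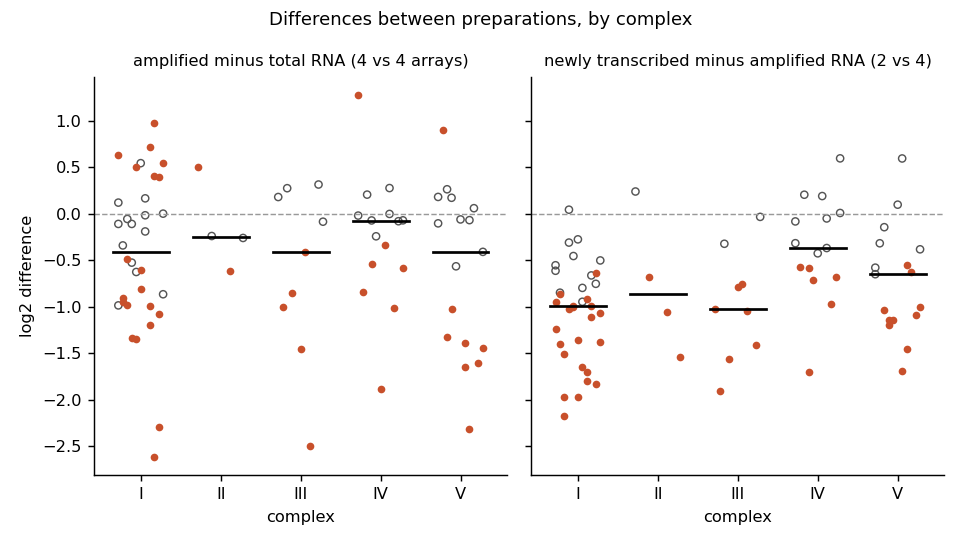
Log2 difference (y axis) of each tested member by complex (x axis) between amplified and total RNA (left) and between newly transcribed and amplified RNA (right); filled points passed an adjusted p of 0.05 and bars are medians. Assembly factors and cytochrome c are not drawn. Complex I has 7 filled points above 0 and 13 below on the left, and on the right all filled points lie below 0.

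In complex I, Ndufb7 (0.97 ± 0.237, limma adjusted p = 0.00952), Ndufc1 (0.72) and Ndufa9 (0.64) rose, while Ndufa7 fell by 2.61 ± 0.229 (adjusted p = 5.7e-05), and Ndufs5 (-2.30) and Ndufa8 (-1.34) fell as well. Among the assembly factors Ndufaf1 (0.84) and Ndufaf7 (0.76) rose and Ndufaf3 fell by 1.49. In complex II Sdha rose by 0.51 ± 0.0925 (adjusted p = 0.00212), from 10.80, 10.81, 10.82 and 10.84 in total RNA, and Sdhb fell by 0.62 (adjusted p = 0.0346). In complex III Uqcr10 fell by 2.50 ± 0.273 (adjusted p = 0.000145), Uqcrh (-1.46) fell too and Uqcrq fell by 1.00, and none rose. In complex IV Cox7a2l, a factor in joining complexes III and IV, rose by 1.28 ± 0.145 (adjusted p = 0.000174), and Cox6b2 (-1.89), Cox7a1 (-1.01) and Cox6c (-0.84) fell. In complex V Atp5h rose by 0.90 (adjusted p = 0.000642), and Atp5l (-2.31, adjusted p = 6.82e-05), Atp5o (-1.64) and Atp5g2 (-1.60 ± 0.131, adjusted p = 4.09e-05) fell.

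Probe sets of 1 gene passed in opposite directions here for 6 members. Their ranges were -1.54 to 0.72 for Ndufc1, -0.48 to 0.65 for Ndufs4, -0.66 to 0.92 for Ndufv2, -0.85 to 1.18 for Cox5b, -0.50 to 1.28 for Cox7a2l and -0.76 to 0.90 for Atp5h. A preparation difference for these 6 genes thus depends on the probe set.

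Several subunits have isoforms encoded by separate genes, and each probe set is given on its own scale, since signals of different probe sets are not compared. Over the 10 arrays Cox4i1, the general isoform, read 11.16 to 11.82, and Cox4i2, known from lung, 4.84 to 5.59. Cox6a1 read 11.68 to 12.26 and the muscle isoform Cox6a2 5.35 to 6.80. Cox6b1 read 10.62 to 11.99 and the testis isoform Cox6b2 4.48 to 7.17.

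Cox7a2 read 10.84 to 12.13, the muscle isoform Cox7a1 4.73 to 7.28 and Cox7a2l 9.05 to 10.57. Cox8a read 9.24 to 11.91, the muscle isoform Cox8b 4.0 to 6.07 and the testis isoform Cox8c 6.29 to 7.35. The 3 genes that encode the same mature c subunit of ATP synthase were Atp5g1 (7.84 to 11.12), Atp5g2 (7.73 to 10.73) and Atp5g3 (11.74 to 12.16). On the newly transcribed arrays Atp5g1 read 7.84 and 9.48 and Atp5g2 7.73 and 8.19, below their amplified arrays, and Atp5g3 read 12.00 and 12.16. None of these isoform genes except Cox8a was called between the kidneys in total or amplified RNA.

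Other genes of the pathway were counted from lists. In newly transcribed against amplified RNA, 16.7% of all tested probe sets fell and 11.9% rose. Of 29 tested assembly factors with other names, 0 were called between the kidneys in either replicated preparation, and 11 fell and 0 rose in newly transcribed against amplified RNA, among them the complex I factors Foxred1 (-1.21) and Acad9 (-1.14) and the membrane insertase Oxa1l (-0.94). Of 16 genes of pyruvate dehydrogenase and the TCA cycle, 9 fell and 0 rose there (Suclg2 -1.75, Dld -1.65, Fh1 -1.04). A list of other electron donors, genes of cytochrome c maturation and Nnt had 11 tested genes. Of these 6 fell and 0 rose (Etfdh -1.38, Nnt -1.09, Etfb -0.92), and of 9 genes of ADP and phosphate exchange 3 fell and 0 rose (Vdac2 -1.27, Atpif1 -1.13, Ckmt1 -1.09). Between the 2 newly transcribed arrays, 4 of the 29 assembly factors were at least 2-fold higher and 4 lower on the contralateral one. Of all tested probe sets 14.4% were higher and 18.5% lower. The counts were 2 and 2 for the TCA cycle list, 1 and 4 for the list with the electron donors, and 2 and 1 for ADP and phosphate exchange. This was 1 array against 1, with no test. Between the kidneys in amplified RNA, Idh3g rose by 0.42 (limma, adjusted p = 0.0441), and Gpd2, the glycerol-3-phosphate dehydrogenase of mitochondria, fell by 0.89 (adjusted p = 0.00174) and Vdac3 by 0.42 (adjusted p = 0.0375). With arrays scaled to 1 median Gpd2 kept its call and Idh3g and Vdac3 did not. The sole mitochondrially encoded subunit named on the array, ND5 of complex I, fell by 0.38 ± 0.095 in amplified RNA (adjusted p = 0.03), which was lost with arrays scaled to 1 median.

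Regulators of mitochondrial genes were counted in the same way, each gene by its brightest probe set. In newly transcribed against amplified RNA 4 of 17 rose and 0 fell, against 11.9% and 16.7% of all tested probe sets. They were the coactivator Ppargc1b (1.07), Yy1 (1.07), Nrf1 (0.88) and the coactivator Pprc1 (0.88). The list median was 0.61, where that of the members was -0.81. Bright probe sets as a whole had a median of -0.30, and a relation between regulators and members was not tested. Between the 2 newly transcribed arrays, 2 of 17 were at least 2-fold higher and 8 lower on the contralateral one. Of all tested probe sets 14.4% were higher and 18.5% lower. The list median there was -0.44, where that of the members was 0.67, with 1 array against 1 and no test. Ppargc1a read 7.76 and 7.72 in normal and 8.62 and 8.45 in contralateral total RNA, and rose by 0.79 ± 0.117 (limma, adjusted p = 0.00749). In amplified RNA it read 8.92 and 8.86 against 7.43 and 7.33, and fell by 1.51 ± 0.117 (adjusted p = 3.31e-05). The 2 effects differed by -2.30 (adjusted p = 2.75e-05). Ppara, a nuclear receptor of fat oxidation, rose by 1.04 ± 0.167 in total (adjusted p = 0.0115) and fell by 1.00 ± 0.167 in amplified RNA (adjusted p = 0.00336). These directions for Ppargc1a and Ppara were the same, and called, with arrays scaled to 1 median. Yy1 rose by 0.48 in amplified RNA (adjusted p = 0.0287).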

How the data were processed

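The deposited values are linear intensities, with 1 value for each probe set of an array. The RNA was reverse-transcribed, linearly amplified and labelled with biotin by a T7 strategy, per the labels' protocols, which do not separate the preparations here. How probes were summarised and arrays scaled is not given in the sources used here. Array medians of the deposited intensity lay between 18.6 and 70.3. A pseudocount of 11.8, the 25th percentile over all arrays, was added before taking log2, followed by quantile normalization, with 64 control probe sets set aside. A log2 difference on this scale understates changes of dim genes. Probe sets with a mean above the 40th percentile were tested (13575 of 22690).

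Linear models were fitted with limma 3.58.1 under R 4.3.3 (lmFit, eBayes with intensity trend) on all 10 arrays, with Benjamini-Hochberg adjustment over all tested probe sets. Effects within a preparation came from 6 group means (4 residual degrees of freedom), and the others from a model with kidney and preparation as additive terms (6). The model with 6 group means takes its spread from the replicated groups alone. In the additive model the newly transcribed arrays enter the residual spread, which also holds any difference of the kidney effect between preparations. Depth does not apply to arrays, and their number limits the precision. The p-values of the model with 6 group means measure the spread between replicate arrays. Those of the additive model measure that spread together with such differences between preparations. The steps were tested on simulated data.

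Symbols came from the platform annotation: 20393 probe sets have 1 symbol, 691 several, and 1606 are not listed. Per complex and comparison, up to 3 called members in each direction with the largest differences were named, or, where none passed, the member with the smallest p. Isoform families and members whose probe sets disagreed were always named. Ndufc2, Ndufv1, Ndufs7 and Atp5b were named after their values were seen. The members and gene lists were chosen with earlier results of these data known. Alternatives were the pseudocount, median scaling, the filter, no trend, no cross-hybridising probe sets, a replicate block, the replicated arrays alone and leaving out each array.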

Additional observations from a re-analysis of the deposited data

Results flagged for a closer look

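The contralateral effect differed between the 2 replicated preparations for 3 members by limma's test of the difference, amplified minus total RNA. Cox8a had a difference of 0.63 ± 0.118 (adjusted p = 0.0109). For Sdhc the difference was -0.74 ± 0.162 (adjusted p = 0.024), and for Uqcrc2 it was -0.50 ± 0.122 (adjusted p = 0.0413). Cox8a kept the call in 14 of 19 alternative fits, Sdhc in 11 of 19 and Uqcrc2 in 8 of 19. The second Cox8a probe set also passed (1.22, adjusted p = 0.000361), and the second Uqcrc2 probe set did not (0.12, adjusted p = 0.701).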

How the results depend on the processing

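In total RNA and over all preparations the count of called members was 0 under every alternative run. In amplified RNA the 7 called members became 2 with arrays scaled to 1 median, 4 without the intensity trend and 3 to 14 when 1 array was left out. For the difference between the 2 effects, the 3 called members became 1 with median scaling, 1 without the filter, 0 without the trend and 0 to 9 when 1 array was left out. The cause was not tested. Newly transcribed against amplified RNA gave 39 to 70 called members, amplified against total RNA 31 to 63, and the newly transcribed arrays 32 to 44 members past 2-fold. Without normalization between these 2 arrays, an alternative chosen after seeing the data, 36 members were past 2-fold again, but with 2 higher and 34 lower, and the median turned to -0.77. A sign turned in 3 fits, each of which took another probe set for the gene. Uqcrc2's difference between effects was 0.12 on the total and amplified arrays alone. Without probe sets ending in _s_at or _x_at, Uqcrq read 0.12 (amplified against total) and Atp5c1 0.66 (newly transcribed against amplified). Of the named members' fits, 95 of 113 kept the call in amplified RNA, 391 of 415 between amplified and total RNA, and 307 of 322 between newly transcribed and amplified RNA.

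Replicate numbers recur across groups, and the titles do not say that they pair samples. Deviations of same-numbered arrays correlated at 0.097 and 0.0998 for total and amplified RNA of a kidney type and at -0.07 to 0.04 otherwise. These correlations were small, but they were highest where same-numbered arrays could come from the same mouse. Shared mice are thus not excluded. The main fits did not pair arrays by number and treat all arrays as independent. If mice were shared, the p-values of the additive fits and of the difference between effects do not account for it. With the replicate number as a block, 8 members were called in amplified RNA, 4 for the difference between effects, 41 for amplified against total RNA, 40 for newly transcribed against amplified RNA and 0 in total RNA.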

Other observations

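Ucp1, the uncoupling protein of brown fat, varied between the arrays of normal kidneys. In normal kidneys replicate 1 read 6.88 in total and 6.50 in amplified RNA, and replicate 2 read 4.94 and 4.97. Contralateral arrays read 6.65 and 7.16 in total and 6.68 and 7.03 in amplified RNA, and the kidney groups did not pass in either (limma, adjusted p = 0.448 and 0.248).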
